A study of Mus musculus with 22 samples.

Results

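The genes described here are 10 markers of Kupffer cells and other macrophages: Clec4f, Vsig4, Timd4, Marco, Cd5l, Emr1, Csf1r, Cd68, Trem2 and Lyz2. They were chosen by name as known markers, with earlier results of these data known. Each was found by its symbol in both deposited expression tables, among 24063 genes in the first set of mouse liver tumours and 24019 genes in the second. All 10 passed the filter on low values in both sets. In set 2, Clec4f, Vsig4, Timd4 and Marco passed it through β-catenin tumours and would not have passed on p53 tumours alone. The tumours grew in untreated C57BL/6 mice after plasmids, which hepatocytes mainly take up, were given by hydrodynamic tail-vein injection. All tumours shared MYC, and the second driver was either β-catenin (bcat in the names of set 1, CTNNB1 in those of set 2) or p53 (sgp53 in the names of set 2). The plasmids also carried either luciferase alone (luc) or lucOS, luciferase joined to model antigens. Set 1 held 2 lucOS β-catenin, 4 luc β-catenin, 3 lucOS p53 and 3 luc p53 tumours. Set 2 held 3 lucOS β-catenin, 3 luc β-catenin and 4 lucOS p53 tumours. The macrophages of these tumours belong to the host and were not targeted, and the labels give neither an age nor which tumours share an animal.

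Kupffer cells are the macrophages that live in the sinusoids of the liver, where they clear bacteria, debris and old red blood cells from the blood. They are seeded before birth, renew themselves in place, and depend on signals from neighbouring hepatocytes, stellate cells and sinusoidal endothelial cells. When they are lost, or when a liver is injured or holds a tumour, monocytes from the blood enter and become macrophages that share the general macrophage genes but lack, at first, the Kupffer cell genes. Of the 10 genes, 5 mark resident Kupffer cells: Clec4f (a C-type lectin found on mouse Kupffer cells), Vsig4 (the complement receptor CRIg, which captures bacteria from the blood), Timd4 (a receptor for phosphatidylserine on dying cells), Marco (a scavenger receptor) and Cd5l (the secreted protein AIM). Another 3 mark macrophages of any origin: Emr1 (F4/80, now named Adgre1), Csf1r (the receptor for the growth factors CSF1 and IL-34) and Cd68 (a lysosomal glycoprotein). The last 2 are high in recruited macrophages: Trem2, a lipid receptor of macrophages in damaged or fatty tissue and in tumours, and Lyz2, lysozyme M, which monocytes and neutrophils also express.

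The 5 Kupffer cell genes lie on 5 chromosomes (mm10): Clec4f at chr6:83644542-83656187, Vsig4 at chrX:96247203-96293438, Timd4 at chr11:46810800-46844332, Marco at chr1:120474538-120505024 and Cd5l at chr3:87357881-87371073. The promoters of Clec4f, Vsig4 and Marco are shown because these are the Kupffer cell genes that passed the test between drivers. RefSeq's table held a promoter window of 300 bases around the start for 8 of the 10 genes (GRCm38.p6). Capitals mark GAGGAA and GGAAGT on either strand, letters found in sites of PU.1, the ETS factor that macrophages need. The 2 motifs can overlap, since both hold GGAA.
Clec4f promoter, chr6:83656067-83656366, minus strand: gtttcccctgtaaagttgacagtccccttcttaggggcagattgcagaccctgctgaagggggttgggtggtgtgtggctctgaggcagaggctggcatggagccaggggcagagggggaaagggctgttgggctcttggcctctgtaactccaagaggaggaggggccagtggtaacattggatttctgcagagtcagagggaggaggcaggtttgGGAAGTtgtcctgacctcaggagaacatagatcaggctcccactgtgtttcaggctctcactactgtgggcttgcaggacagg
Vsig4 promoter, chrX:96293389-96293688, minus strand: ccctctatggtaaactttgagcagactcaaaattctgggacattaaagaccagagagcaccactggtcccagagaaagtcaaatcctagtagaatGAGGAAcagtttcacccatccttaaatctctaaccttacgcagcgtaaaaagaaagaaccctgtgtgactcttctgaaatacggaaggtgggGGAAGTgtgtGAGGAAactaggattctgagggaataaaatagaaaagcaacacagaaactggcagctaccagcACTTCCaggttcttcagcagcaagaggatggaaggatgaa
Marco promoter, chr1:120504975-120505274, minus strand: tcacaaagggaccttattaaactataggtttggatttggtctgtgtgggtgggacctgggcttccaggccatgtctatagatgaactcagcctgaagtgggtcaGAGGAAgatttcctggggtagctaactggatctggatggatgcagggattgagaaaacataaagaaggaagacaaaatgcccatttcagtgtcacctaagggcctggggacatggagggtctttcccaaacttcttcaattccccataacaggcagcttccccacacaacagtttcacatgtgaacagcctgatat
GAGGAA stood in 5 of the 8 promoters, against 28.3% of 32851 RefSeq promoters, and GGAAGT in 5 of 8, against 23.8%. At least 1 of the motifs stood in all 8, against 43.4% of promoters. A match describes the letters only and does not show that a factor binds there.

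Each tumour had between 33.706 M and 54.873 M reads over genes in set 1 and between 33.551 M and 50.116 M in set 2, and values are normalised reads as the authors deposited them, scaled within each set. Trp53 followed the labels: it ran from 3296 to 4994 in β-catenin tumours and from 1423 to 2280 in p53 tumours of set 1, and from 2631 to 4405 against 1345 to 2223 in set 2. Ctnnb1 was not higher with the β-catenin construct: it ran from 15489 to 22465 in β-catenin and 22214 to 29241 in p53 tumours of set 1, and from 24223 to 25938 and 23510 to 35645 in set 2. In set 1, luc p53 tumour 1 had 8.90% of its reads on the ribosomal RNA gene Rn45s, against 1.22% to 2.04% in the other 11 tumours, and it was the lowest tumour of set 1 for 9 of the 10 genes. In set 2, the names of p53 tumours 1 to 3 begin with AL and those of p53 tumour 4 and all β-catenin tumours with JAX. What the prefixes stand for is not stated, so in set 2 the driver and the prefix cannot be told apart beyond p53 tumour 4. The samples are pieces of whole tumour, so fewer cells of a type and less RNA per cell cannot be told apart either.

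In the lucOS tumours of set 2, the Kupffer cell genes Clec4f and Vsig4 were higher with β-catenin than with p53, while Emr1 and Csf1r, genes of all macrophages, were lower. These were the 4 of 10 genes that passed limma's test at an adjusted p under 0.05, where 17.0% of the 15625 genes tested passed, 6.08% of them higher and 10.9% lower. The comparison asks how the driver changes the tumour when the model antigen is present. The plot of values by tumour in set 2 shows both patterns.

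Clec4f stood at 169.6, 47.3 and 429.5 in lucOS β-catenin tumours 1 to 3, and at 0, 0.92, 0.995 and 11.9 in lucOS p53 tumours 1 to 4. The 4 p53 tumours held 0, 1, 1 and 10 reads of it, so that 3 of them lay under the floor of 3 reads, and no p53 tumour reached the lowest β-catenin tumour. Only p53 tumour 4 reached the filter's 10 normalised reads, so Clec4f was tested because of its β-catenin tumours. With no filter its adjusted p by limma was 0.0187. The means were 215 ± 195 (SD, n = 3) and 3.45 ± 5.64 (n = 4), a log2 difference of 5.85 (SE 1.24, adjusted p = 0.0157). The size rests on the pseudocount, because p53 values were near 0: it was 4.42 with a pseudocount of 5. Without β-catenin tumour 3 the adjusted p was 0.0573, and among tumours named JAX alone, with 1 p53 tumour left, the difference was 3.57 (adjusted p = 0.607).

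Vsig4 stood at 56.8, 29.9 and 202 in lucOS β-catenin tumours and at 3.65, 1.84, 2.99 and 9.51 in lucOS p53 tumours, again without overlap. Every p53 value lay under the filter's 10 normalised reads, so Vsig4 too was tested because of its β-catenin tumours. With no filter its adjusted p by limma was 0.0396. The means were 96.3 ± 92.8 (SD, n = 3) and 4.495 ± 3.42 (n = 4), a log2 difference of 3.88 (SE 1.04, adjusted p = 0.0327). The call was lost without any 1 of p53 tumours 1, 2 and 3 or β-catenin tumours 1 and 3 (adjusted p from 0.0618 to 0.112), and the difference was 2.76 (adjusted p = 0.649) among tumours named JAX.

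The other Kupffer cell genes did not pass. Marco had 19.7, 31.5 and 39.5 in lucOS β-catenin tumours against 4.56, 11.04, 4.98 and 11.9 in lucOS p53 tumours, with no overlap between the groups (log2 1.83, SE 0.72, adjusted p = 0.102). DESeq2 called it (adjusted p = 0.0365). Timd4 had 5.82, 4.98 and 19.8 against 4.56, 10.1, 0.995 and 1.19, with overlap (log2 1.22, SE 0.95, adjusted p = 0.39). Cd5l, the most abundant of the 5, had 945, 1755 and 781 in β-catenin tumours and 1072, 2743, 563 and 845 in p53 tumours, a log2 difference of 0.00 (SE 0.50, adjusted p = 0.998). The 5 genes thus ran from 0.00 to 5.85 in the same tumours, with a median of 1.83, beside a median of -0.16 over all genes tested.

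Emr1 had 463, 556 and 289 in lucOS β-catenin tumours against 949, 1367, 848 and 727 in lucOS p53 tumours, and all β-catenin tumours lay below all p53 tumours. The means were 436 ± 135 (SD, n = 3) and 973 ± 278 (n = 4), a log2 difference of -1.17 (SE 0.27, adjusted p = 0.0211). Leaving out p53 tumour 1 or β-catenin tumour 3 removed its call (adjusted p = 0.0521 and 0.0637), and it stood at -0.79 (adjusted p = 0.604) among tumours named JAX. Csf1r had 946, 1369 and 795 in β-catenin tumours and 1820, 2404, 1675 and 1284 in p53 tumours, and the groups overlapped. Its means were 1037 ± 298 (SD, n = 3) and 1796 ± 464 (n = 4), a log2 difference of -0.79 (SE 0.24, adjusted p = 0.0477). This call was lost under 11 of 14 alternatives, among them TMM scaling (-0.64, adjusted p = 0.0959), edgeR and DESeq2. Cd68 had 1458, 1414 and 746 against 1902, 2243, 1556 and 1352 and did not pass (log2 -0.58, SE 0.38, adjusted p = 0.302).

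Trem2 and Lyz2 did not pass. Trem2 had 205, 104.5 and 105 in lucOS β-catenin tumours and 104, 147, 64.7 and 91.5 in lucOS p53 tumours (log2 0.42, SE 0.39, adjusted p = 0.473). Lyz2 had 3976, 5795 and 1742 against 4305, 4886, 3872 and 2444 (log2 -0.13, SE 0.40, adjusted p = 0.84), and its sign turned to 0.02 under TMM scaling. Over the 10 genes, 4 had groups that did not overlap (Clec4f, Vsig4, Marco and Emr1), against 32.7% of all genes tested.

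**Figure D1:**
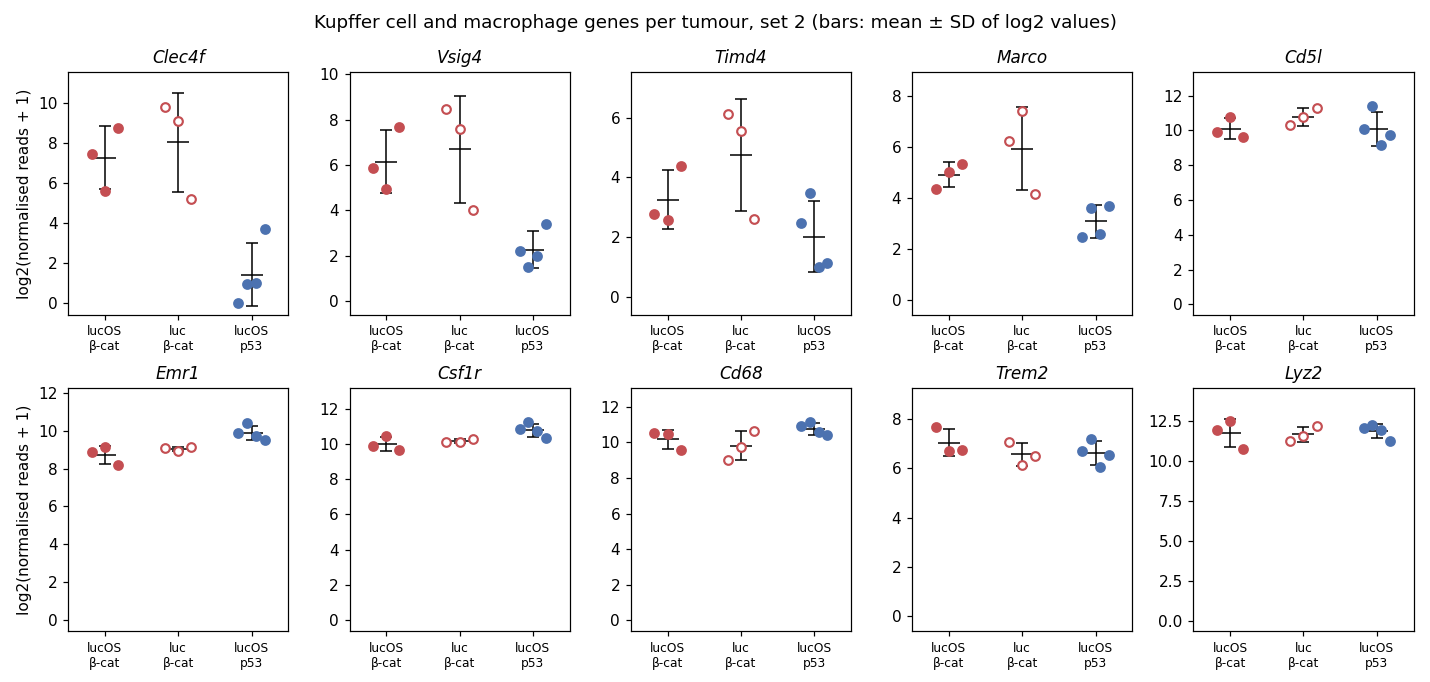
Normalised reads of the 10 genes in each tumour of set 2, as log2 of the value plus 1 (y axis), for lucOS β-catenin, luc β-catenin and lucOS p53 tumours. Points are tumours (filled with lucOS, open with luc), and bars are the mean ± SD of the log2 values. Clec4f and Vsig4 sit below every β-catenin tumour in the 4 p53 tumours, while Emr1 in p53 tumours (727 to 1367 reads) sits above every lucOS β-catenin tumour (289 to 556).

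In the luc tumours of set 1, where no model antigen was present, Marco was the member that passed, and it was higher with β-catenin. It is 1 of 10, where 15.1% of the 16108 genes tested passed, 5.93% of them higher and 9.16% lower. Marco had 187, 699.8, 116 and 498 in luc β-catenin tumours 1 to 4, and 1.36, 30.6 and 53.03 in luc p53 tumours 1 to 3. No β-catenin tumour fell within the p53 range. The means were 375 ± 273 (SD, n = 4) and 28.3 ± 25.9 (n = 3), a log2 difference of 4.22 (SE 1.13, adjusted p = 0.0316). The call was lost without luc p53 tumour 1 (log2 2.84, adjusted p = 0.112), p53 tumour 2, β-catenin tumour 2 or β-catenin tumour 4 (0.058 to 0.0715), and with edgeR (0.0525).

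The other 4 Kupffer cell genes had differences of 2.81 to 4.73 and did not pass. Clec4f had 839.7, 1304, 363 and 2872 in luc β-catenin tumours, against 5.43, 34.0 and 264 in luc p53 tumours (log2 4.73, SE 1.68, adjusted p = 0.0787). DESeq2 called it (adjusted p = 0.0295), and so did limma with only these 2 groups in the fit (0.0343). Vsig4 had 238, 312, 253 and 755 against 0, 26.1 and 153 (log2 4.43, SE 1.55, adjusted p = 0.0745). Neither gene overlapped between the groups, as with Marco, so 3 of the 10 genes did not overlap, against 34.1% of all genes tested. Timd4 had 53.3, 74.3, 23.3 and 192 in β-catenin tumours and 0, 4.54 and 46.1 in p53 tumours (log2 3.37, SE 1.23, adjusted p = 0.0839). Cd5l had 2801, 3298, 3315 and 5110 against 55.7, 778 and 2898 (log2 2.81, SE 1.02, adjusted p = 0.0821). In both genes luc p53 tumour 3 reached into the β-catenin range.

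The remaining genes lay above 0 with smaller differences. Emr1 had 466, 664, 1060 and 992 in luc β-catenin tumours and 136, 294 and 782 in luc p53 tumours (log2 1.26, SE 0.56, adjusted p = 0.142). Csf1r had 1088, 1838, 1965 and 2231 against 333, 624 and 1907 (log2 1.23, SE 0.52, adjusted p = 0.125). Cd68, with 741, 1787, 2108 and 1262 against 345, 1897 and 2084, differed by 0.30 (SE 0.61, adjusted p = 0.76), and by -0.54 without luc p53 tumour 1. Trem2 had 78.2, 190.3, 529 and 256 against 14.9, 76.0 and 131 (log2 1.97, SE 0.89, adjusted p = 0.151), and Lyz2 had 1293, 2374, 5507 and 3597 against 725, 1601 and 2871 (log2 0.90, SE 0.54, adjusted p = 0.267).

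The 3 luc p53 tumours spread widely, and the count of calls turned on them. Tumour 1, with the high Rn45s share, was low in every one of the 10 genes within its group, and tumour 3 was high in every one. Without tumour 1 none of the 10 genes passed, and without tumour 3 6 did: Vsig4, Timd4, Marco, Cd5l, Emr1 and Csf1r, all higher with β-catenin. The share of all genes called in these fits is not given, so the counts are not read as a result about the 10 genes. Over the 10 genes the median log2 difference was 2.39, or 4.22 over the 5 Kupffer cell genes, beside -0.20 over all genes tested. Without tumour 1 these medians were 1.16 and 2.42, and Clec4f differed by 3.42, Vsig4 by 2.42, Timd4 by 2.03, Cd5l by 1.23 and Trem2 by 1.08.

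**Figure D2:**
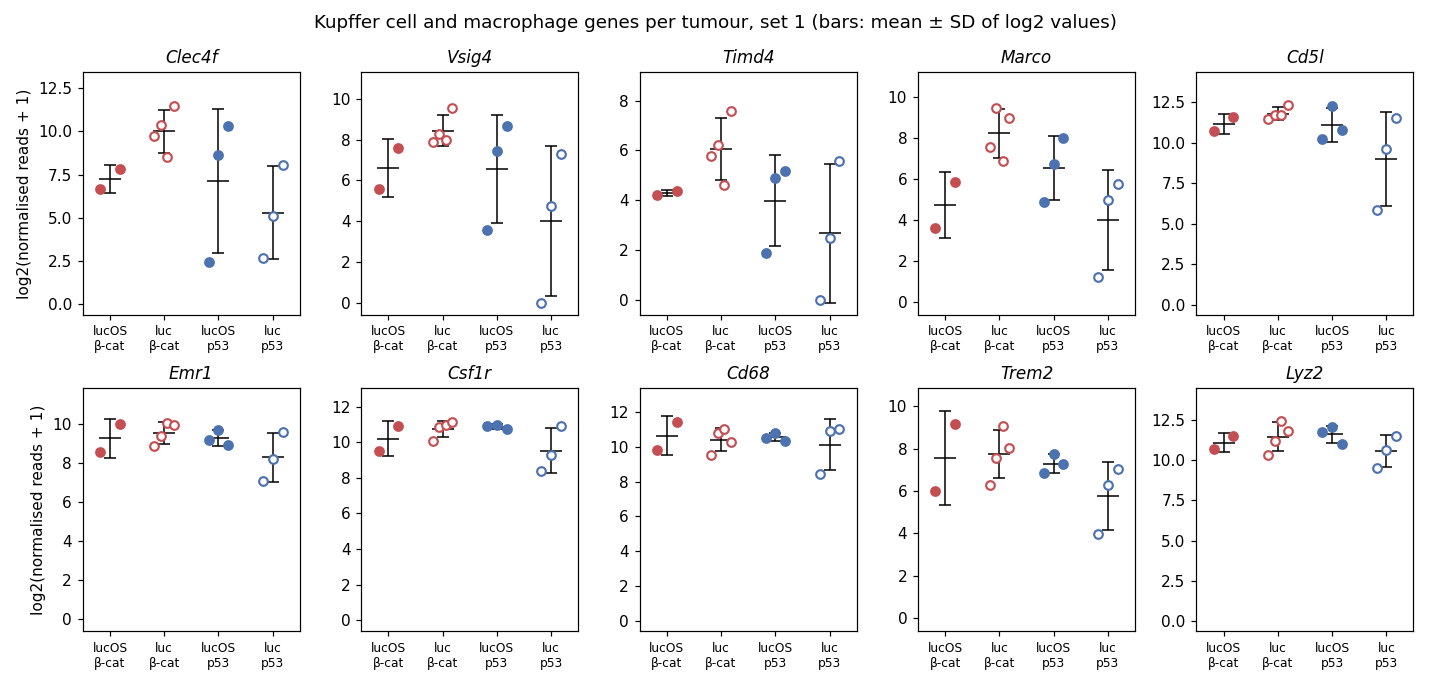
Normalised reads of the 10 genes in each tumour of set 1, as log2 of the value plus 1 (y axis), for lucOS β-catenin, luc β-catenin, lucOS p53 and luc p53 tumours. Points are tumours (filled with lucOS, open with luc), and bars are the mean ± SD of the log2 values. The luc β-catenin tumours hold Marco at 116 to 699.8 reads, above the luc p53 tumours at 1.36 to 53.03, and the lucOS p53 tumours spread from 4.47 to 1276 in Clec4f.

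Among lucOS tumours of set 1, no driver difference passed. None of the 10 genes was called by limma, edgeR or DESeq2, and none had an unadjusted p under 0.05, where 4.21% of all genes passed in limma and 23.6% had an unadjusted p under 0.05. Clec4f had 100.2 and 227 in lucOS β-catenin tumours 1 and 2, and 4.47, 391 and 1276 in lucOS p53 tumours 1 to 3. Both β-catenin values fell between those of the p53 tumours, and the log2 difference was 0.12 (SE 2.01, adjusted p = 0.98). Its sign turned with a pseudocount of 5 (-0.11), edgeR (-1.63) and DESeq2 (-1.64). Vsig4 had 47.1 and 193 against 10.7, 171 and 399 (log2 0.05, SE 1.85). Timd4 had 17.4 and 19.9 against 2.68, 28.9 and 35.0 (log2 0.31, SE 1.47).

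Marco had 11.3 and 57.3 in lucOS β-catenin tumours and 28.6, 105.5 and 249 in lucOS p53 tumours, a log2 difference of -1.79 (SE 1.36, adjusted p = 0.459). Cd5l had 1670 and 3021 against 1198, 4933 and 1722 (log2 0.05, SE 1.22). Csf1r had 725 and 1892 against 1959, 2006 and 1690 (log2 -0.68, SE 0.62, adjusted p = 0.546). The other genes, Emr1, Cd68, Trem2 and Lyz2, differed by -0.51 to 0.29, and all groups overlapped. The standard errors of the 5 Kupffer cell genes, with 2 β-catenin tumours, were 1.22 to 2.01.

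Whether the driver difference itself changed with the antigen was tested as the interaction in set 1. It was negative for all 10 genes, from -6.01 to -0.23, and no gene passed by limma, edgeR or DESeq2. The shared sign depends on luc p53 tumour 1. For Cd68 the lucOS difference was 0.08, and the luc difference went from 0.30 to -0.54 without that tumour. Its interaction would then lie above 0. In each of the 3 tools 2 of the 10 genes had an unadjusted p under 0.05, where in limma 0% of all genes passed and 2.71% had an unadjusted p under 0.05. These were Marco (-6.01, SE 1.77, adjusted p = 1.0) and Csf1r (-1.91, SE 0.81, adjusted p = 1.0), by limma. Clec4f had -4.61 (SE 2.63, adjusted p = 1.0).

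**Figure D3:**
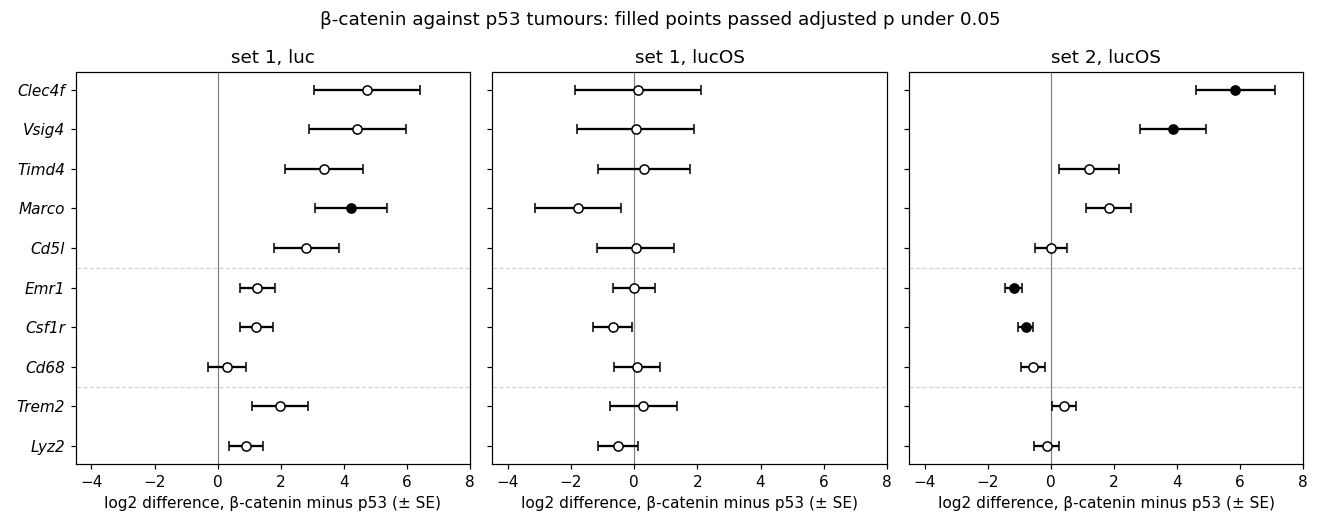
Log2 difference between β-catenin and p53 tumours ± SE (x axis) for each of the 10 genes (y axis) among luc tumours of set 1, lucOS tumours of set 1 and lucOS tumours of set 2. Filled points passed limma's adjusted p under 0.05: Marco in the first panel, none in the second, and Clec4f, Vsig4, Emr1 and Csf1r in the third; dashed lines part Kupffer cell, general macrophage and recruited macrophage genes.

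The antigen was also compared within each driver, in groups that these comparisons share with those above. In p53 tumours of set 1, lucOS minus luc was positive for all 10 genes, from 0.44 to 2.54, and none passed by limma, edgeR or DESeq2. Luc p53 tumour 1, with the high Rn45s share, had the lowest luc p53 value of every gene. Cd68 had 1458, 1810 and 1302 in lucOS p53 tumours, below luc p53 tumours 2 and 3 at 1897 and 2084. Without luc p53 tumour 1 the sign of Cd68 would turn. Csf1r differed by 1.35 (SE 0.55, adjusted p = 0.952). It was 1 of 10 with an unadjusted p under 0.05 in limma, 0 in edgeR and 1 in DESeq2, where in limma 0% of all genes passed and 4.48% had an unadjusted p under 0.05. Its values were 1959, 2006 and 1690 in lucOS p53 tumours and 333, 624 and 1907 in luc p53 tumours, so luc p53 tumours 1 and 2 lay below every lucOS p53 tumour and tumour 3 within their range.

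In β-catenin tumours of set 1, lucOS minus luc was negative for 9 of the 10 genes. None passed by limma, edgeR or DESeq2, and in each tool 1 had an unadjusted p under 0.05, where in limma 0% of all genes passed and 1.38% had an unadjusted p under 0.05. This was Marco, with 11.3 and 57.3 in lucOS β-catenin tumours against 116 to 699.8 in luc β-catenin tumours (log2 -3.47, SE 1.29, adjusted p = 1.0). Clec4f, with 100.2 and 227 against 363 to 2872, differed by -2.77 (SE 1.91, adjusted p = 1.0). In set 2, 7 of the 10 genes were lower in lucOS than in luc β-catenin tumours, and none passed or had an unadjusted p under 0.05 by limma, edgeR or DESeq2, where in limma 0% of all genes passed and 1.84% had an unadjusted p under 0.05. Clec4f stood at 169.6, 47.3 and 429.5 in lucOS β-catenin tumours against 869, 545 and 35.8 in luc β-catenin tumours of set 2 (log2 -0.77, SE 1.33), Vsig4 differed by -0.53 (SE 1.11) and Timd4 by -1.51 (SE 1.01). The luc β-catenin tumours of set 2 themselves spread widely: tumour 3 had the lowest value of its group for Clec4f, Vsig4, Timd4 and Marco, and the highest for Cd5l, Emr1, Csf1r, Cd68 and Lyz2.

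Within single tumours, the ratio of Kupffer cell to general macrophage genes spanned a wide range. Clec4f as a percentage of Csf1r was 17.9%, 3.45% and 54.0% in lucOS β-catenin tumours of set 2 and 78.7%, 49.6% and 2.84% in its luc β-catenin tumours, against 0%, 0.0383%, 0.0594% and 0.925% in its lucOS p53 tumours. No p53 tumour of set 2 reached the lowest β-catenin tumour. In set 1 it was 13.8% and 12% in lucOS β-catenin tumours, 77.2%, 70.9%, 18.5% and 129% in luc β-catenin tumours, 0.228%, 19.5% and 75.5% in lucOS p53 tumours and 1.63%, 5.45% and 13.9% in luc p53 tumours. Here lucOS p53 tumour 3 matched the luc β-catenin tumours, and lucOS p53 tumour 1 lay below all others. These ratios are of values not divided by gene length and describe differences between tumours, with no test.

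The mean log2 of the 5 Kupffer cell genes minus that of Emr1, Csf1r and Cd68 is a second view of the same balance. Cd5l, which did not follow the other Kupffer cell genes in set 2, is part of the first mean. The difference ran from -4.22 to -1.97 in lucOS β-catenin, -4.56 to -1.22 in luc β-catenin and -7.21 to -5.76 in lucOS p53 tumours of set 2. In set 1 it was -3.32 and -3.14 in lucOS β-catenin tumours, -2.74 to -0.47 in luc β-catenin, -5.61 to -1.43 in lucOS p53 and -6.02 to -2.89 in luc p53 tumours.

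**Figure D4:**
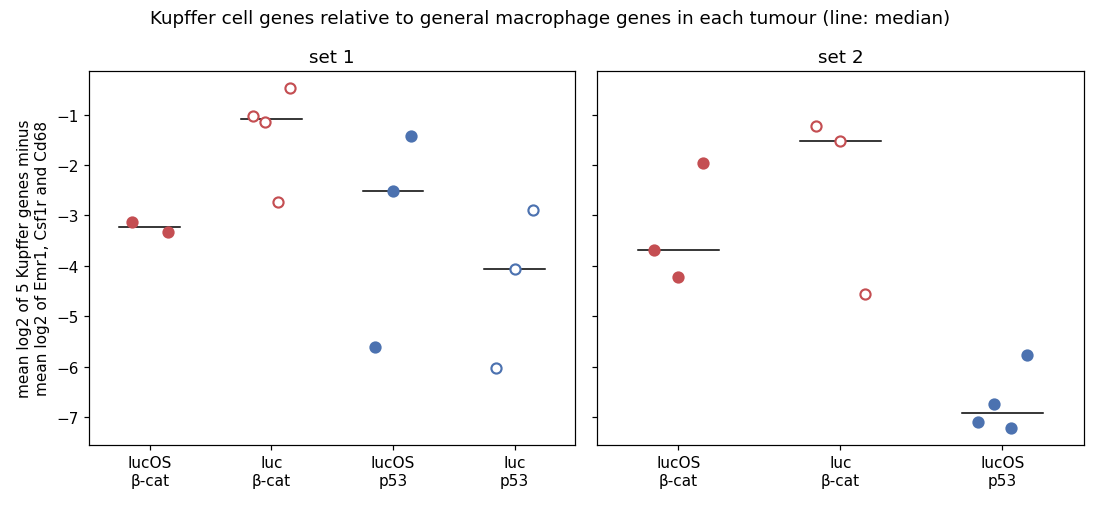
Mean log2 of Clec4f, Vsig4, Timd4, Marco and Cd5l minus the mean log2 of Emr1, Csf1r and Cd68 in each tumour (y axis), by group, for set 1 and set 2; lines are group medians. In set 2 the 4 lucOS p53 tumours (-7.21 to -5.76) lie below all β-catenin tumours, and in set 1 lucOS p53 tumours overlap lucOS β-catenin tumours, while luc p53 tumours (-6.02 to -2.89) lie below luc β-catenin tumours (-2.74 to -0.47).

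Across tumours, Clec4f, Vsig4, Timd4 and Marco varied together. Pearson's r between pairs of them, on log2 values, was 0.87 to 0.95 over the 12 tumours of set 1 and 0.73 to 0.98 over the 10 tumours of set 2. Cd5l went with them in set 1 but not in set 2, where its r with Clec4f, Vsig4, Timd4 and Marco was 0.03, -0.05, 0.33 and 0.27. With each group's mean taken off, its r in set 2 was -0.53 with Clec4f and -0.6 with Vsig4. It was 0.79 with Emr1 and 0.8 with Csf1r. Kupffer cell genes and the other 5 genes had a median r of 0.67 in set 1 and -0.42 in set 2 (25 pairs, from -0.91 to 0.51). After each group's mean was taken off, these medians were 0.61 and -0.20. All points share the libraries and the differences between groups, and the correlations are given as a description.

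Per kilobase of transcript, Lyz2 and Cd68 stood at 2916 ± 1543 and 980.4 ± 324 in lucOS β-catenin tumours of set 2, and at 2946 ± 792 and 1434 ± 319 in its lucOS p53 tumours (SD, n = 3 and 4). Cd5l, Csf1r, Emr1, Trem2, Clec4f, Vsig4, Marco and Timd4 followed in that order in the β-catenin tumours, from 569.9 ± 256 for Cd5l through 131 ± 54.8 for Trem2 and 87.2 ± 79.0 for Clec4f to 4.69 ± 3.82 for Timd4. In the p53 tumours Clec4f came last, at 1.396 ± 2.28 per kilobase, below Timd4 at 1.94 ± 1.96, Vsig4 at 3.14 ± 2.39 and Marco at 4.22 ± 2.02, 4 neighbours within each other's spread, while Trem2 stood at 96.5 ± 32.6. In luc β-catenin tumours of set 1 Clec4f stood at 544 ± 441 per kilobase, level with Csf1r at 460.1 ± 127 within their spread, and in luc p53 tumours at 41.0 ± 57.5 against 247 ± 216 for Csf1r. Lyz2 has a close paralog, Lyz1, so its value may hold reads of both.

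The rest of the macrophage genes came from lists of markers. Of 11 further Kupffer cell genes in set 1, 3 were higher in luc β-catenin than in luc p53 tumours, none lower and 8 not called, with a median of 1.13. Of all genes tested there, 5.93% were called higher and 9.16% lower. Nr1h3, the liver X receptor that maintains Kupffer cell identity, had 4409 ± 159 (SD, n = 4) and 2076 ± 614 (n = 3; log2 1.13, adjusted p = 0.0133). It held without any single tumour, and hepatocytes express it as well. Cd163, the haemoglobin scavenger receptor, had 365 ± 189 and 58.2 ± 65.3 (log2 3.12, adjusted p = 0.035), and Folr2, a folate receptor, 173 ± 102 and 30.6 ± 23.5 (log2 2.55, adjusted p = 0.0341). Both calls were lost without luc p53 tumour 1 (0.134 and 0.122), luc p53 tumour 2 (0.101 and 0.105) and further tumours. C6, a component of the complement membrane attack complex, did not pass (log2 4.48, adjusted p = 0.0651).

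In lucOS tumours of set 2, 2 of 10 further Kupffer cell genes were higher with β-catenin, 1 lower and 7 not called, with a median of -0.40. Of all genes tested there, 6.08% were called higher and 10.9% lower. C6 had 305 ± 286 (SD, n = 3) and 10.1 ± 10.5 (n = 4; log2 4.78, adjusted p = 0.00469). It ran from 116 to 634 in β-catenin tumours and from 3.65 to 25.8 in p53 tumours and held without any single tumour. C6 would not have passed the filter on p53 tumours alone, so it was tested because of its β-catenin tumours. With no filter it kept its call. Cd163 had 155 ± 85.1 and 29.5 ± 13.98 (log2 2.30, adjusted p = 0.0489) and lost its call without any 1 of 6 of the 7 tumours. Its call was also lost with a pseudocount of 5 and with no filter. Slc40a1, the iron exporter ferroportin, was lower, with 5012 ± 482 and 8490 ± 1583 (log2 -0.75, adjusted p = 0.0196), a call that leaving out p53 tumour 3 (0.0548) or β-catenin tumour 3 (0.064) removed. Clec1b, Fcna, Kcna2, Il18bp and Spic had values of -1.07 to -0.28 and did not pass, so the list did not go one way.

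Of 10 further genes of all macrophages in set 2, 1 was lower with β-catenin, none higher, with a median of -0.74. This share was near the 10.9% of all genes tested that were called lower. Aif1, the cytoskeletal protein IBA1, had 70.7 ± 19.5 (SD, n = 3) and 239.7 ± 66.1 (n = 4; log2 -1.74, adjusted p = 0.0117) and held without any single tumour. C1qa, C1qb and C1qc, the chains of complement C1q, had -0.77, -0.63 and -0.70 and did not pass. Of 13 further genes of recruited and monocyte-derived macrophages, 5 were lower, none higher and 8 not called, with a median of -1.12. Itgam, the integrin CD11b, had 84.7 ± 34.2 and 291 ± 56.1 (log2 -1.84, adjusted p = 0.00871) and held without any single tumour. Ccr2, the receptor that draws monocytes from blood, had 57.1 ± 22.9 and 158 ± 43.2 (log2 -1.50, adjusted p = 0.0245). Ly6c2, a marker of classical monocytes, had 22.8 ± 3.04 and 113 ± 63.1 (log2 -2.09, adjusted p = 0.0264), and Fcgr4, an Fc receptor, had 174 ± 78.2 and 492 ± 126 (log2 -1.58, adjusted p = 0.0418). The calls of Ccr2, Ly6c2 and Fcgr4 were lost without p53 tumours 1, 2 or 3 or β-catenin tumour 3 and further tumours (0.0516 to 0.131), and that of Fcgr4 also under TMM scaling. The fifth was Fabp5. Gpnmb and Spp1, genes of lipid-laden and scar-associated macrophages like Trem2, did not pass (log2 0.54 and -1.12).

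In set 1 luc tumours the same lists gave medians of 0.92 for genes of all macrophages and 0.36 for recruited macrophages, with none called by limma. An unadjusted p under 0.05 was reached by 2 of 10 and 0 of 13 in limma, and edgeR called none, while DESeq2 called 2 of the 10 and none of the 13. DESeq2 called 3303 of all 16108 genes tested there, so its 2 of 10 are not read as a result about the list. Of 5 tested growth factors and chemoattractants, Csf1, Il34, Ccl2, Ccl7 and Cx3cl1, none passed in either set by limma, edgeR or DESeq2, and by limma 0 in set 1 luc and 2 in set 2 lucOS tumours had an unadjusted p under 0.05. Their medians were -1.01 in set 1 luc and -0.98 in set 2 lucOS tumours. Csf1, the main growth factor of macrophages, had -0.25 (adjusted p = 0.559) and -0.99 (adjusted p = 0.102). In set 1 lucOS tumours 0 of the 76 further list genes, other cell types included, passed by limma (4 with an unadjusted p under 0.05) or edgeR and 2 by DESeq2. Of all 16108 genes tested there, DESeq2 called 2031. In the comparisons of lucOS with luc and the interaction none passed by any of the 3 tools, with 2 to 4 at an unadjusted p under 0.05 in limma.

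**Figure D5:**
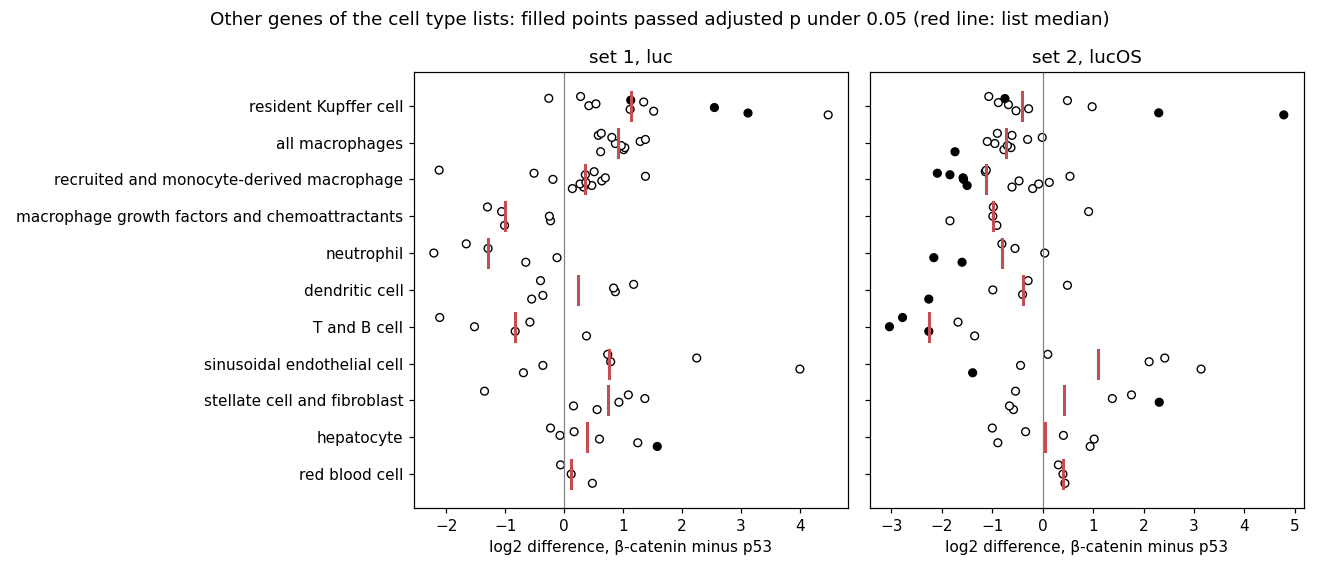
Log2 difference between β-catenin and p53 tumours (x axis) for the list genes other than the 10 members, by cell type list (y axis), among luc tumours of set 1 and lucOS tumours of set 2. Filled points passed limma's adjusted p under 0.05 and red lines are list medians: in set 2 the median was -1.12 for recruited macrophage genes and -2.26 for T and B cell genes, and in set 1 it was 1.13 for Kupffer cell genes.

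Some markers of other cells also differed. Of all genes tested in lucOS tumours of set 2, 10.9% were called lower and 6.08% higher. A single call in a list of 5 or 6 is not read as a result about that list. In lucOS tumours of set 2, 3 of 5 tested T and B cell genes were lower with β-catenin: Cd3e, Cd3g and Cd8a, parts of the T cell receptor complex and its co-receptor, with log2 differences of -2.26, -3.04 and -2.78 (adjusted p = 0.00726, 0.00757 and 0.00978). The summed level of the list's 6 genes was 107 to 113.5 in β-catenin and 259 to 687 in p53 tumours. Cd3e and Cd3g would not have passed the filter on lucOS β-catenin tumours alone, and both kept their calls with no filter. Neutrophil genes Csf3r and Cxcr2 (2 of 5), the dendritic cell gene Ccr7 (1 of 5) and the endothelial gene Cdh5 (1 of 6) were lower as well. Dcn, a fibroblast gene (1 of 6), was higher. Csf3r held without any single tumour. Leaving out 1 tumour removed the call of Ccr7 in 3 fits, of Cdh5 in 5, and of Cxcr2 and Dcn in 6 each. Cxcr2 and Cdh5 also lost it with edgeR, Cxcr2 with the compared groups alone, and Dcn with a pseudocount of 5 and no filter. Cxcr2 and Ccr7 would not have passed the filter on lucOS β-catenin tumours alone. The endothelial list did not go one way. Clec4g, Oit3, Lyve1 and Stab2 had 3.14, 2.42, 2.11 and 0.1 and Kdr -0.44, none of them passing, with a list median of 1.1. DESeq2 called 4 of the 6 endothelial genes, and 3842 of all 15625 genes tested. Nor did the fibroblast list: Lrat and Lum had 1.38 and 1.76, and Col1a1, Col1a2 and Pdgfrb -0.58, -0.66 and -0.54, none passing. Summed neutrophil genes ran from 196 to 323 in β-catenin and 392 to 1217 in p53 tumours, and summed dendritic cell genes from 142 to 212 and 179 to 396. Summed endothelial genes ran from 1981 to 3863 and 3831 to 5580, and summed fibroblast genes from 2314 to 10794 and 5928 to 10971. None of 6 hepatocyte genes passed by limma, edgeR or DESeq2 (0, 1 and 2 at an unadjusted p under 0.05), and their sum ran from 317544 to 975819 in β-catenin and 234059 to 476498 in p53 tumours. Summed red blood cell genes ran from 4601 to 7478 and 2807 to 7412. None of the genes in these 7 lists that were found was at 0 in every tumour of a group. Among tumours named JAX alone, with 1 p53 tumour left, 27 of all genes tested were called and none of the 17 called list genes of set 2, while 17 of 17 had the same sign as over all set 2 tumours, which include these. C6 had 4.83 there (adjusted p = 0.142) and Itgam -2.13 (adjusted p = 0.341).

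In luc tumours of set 1 the hepatocyte sum was 805942 to 981712 with β-catenin and 358709 to 657693 with p53, without overlap, and Alb, albumin, was higher (log2 1.58, adjusted p = 0.021; 1 of 6). That call was lost without luc p53 tumour 2 (0.0938) or 3 (0.0639). Of all genes tested, 5.93% were called higher. The sums overlapped for T and B cells (57.8 to 147 and 110 to 337), neutrophils (222 to 507 and 425 to 2642), dendritic cells (142 to 231 and 118 to 222), endothelium (3081 to 5535 and 1817 to 7791), fibroblasts (8125 to 35244 and 5820 to 20709) and red blood cells (4252 to 12203 and 2604 to 19418). The part of any of these cells in the values of the 10 genes was not tested.

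Outside the 10 genes, those whose levels followed Clec4f most closely were found among 15368 genes by the lower of 2 Pearson correlations of log2 values, over the 12 tumours of set 1 and the 10 of set 2. They were Colec10, a liver collectin (0.97 and 0.95), Gdf2, bone morphogenetic protein 9 (0.96 and 0.93), Reln, reelin (0.93 and 0.95), Clec4g, a lectin of sinusoidal endothelium (0.98 and 0.93), and Mug1, a plasma protease inhibitor made by hepatocytes (0.92 and 0.95). The 10 genes were left out of this ranking; of them Vsig4, with 0.94 in set 1 and 0.98 in set 2, was as close to Clec4f. Reln ran from 98.7 to 667 in lucOS β-catenin tumours of set 2 and from 0.92 to 34.5 in its lucOS p53 tumours, and Mug1 from 826 to 4778 and from 9.13 to 109. Clec4g ran from 8.29 to 101 and from 0 to 4.75 in the same groups, and from 81.5 to 311.5 in luc β-catenin and 2.72 to 29.2 in luc p53 tumours of set 1. Since the genes were chosen for likeness across these tumours, no test is given. Outside the 10 genes, those most like Trem2 were Timp2 (0.93 and 0.86), an inhibitor of matrix proteases, Gpnmb (0.92 and 0.78), a glycoprotein of lipid-laden macrophages, Susd2, Fam219aos and Dact3 (0.72 to 0.77). Gpnmb ran from 734 to 2540 in lucOS β-catenin and from 706 to 1813 in lucOS p53 tumours of set 2, with overlap.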

How the data were processed

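RNA from 22 liver tumours was sequenced after TruSeq library preparation, per the labels' protocols; strand is not stated. The authors deposited 2 tables of normalised signal, which in both are whole reads divided by 1 factor per sample: 100% of values were whole within a tolerance of 0.01 reads. The submitters' processing notes name TopHat2, featureCounts, DESeq2 and mm10. Set 1 lists 33068 transcripts, and the one with the highest mean stood for each gene. The tables were scaled separately, so tests stayed within a set. The filter asked for 10 normalised reads or more in 2 tumours (set 1) or 3 (set 2). limma 3.58.1 in R 4.3.3, with its trend option, fitted log2(value + 1) over every group of a set at once, with Benjamini-Hochberg adjustment over all kept genes; the steps were tested on simulated data. Where no tool is named, an adjusted p is from limma. Recovered reads were tested with edgeR 4.0.16 and DESeq2 1.42.0 as alternatives, beside another pseudocount, no filter, TMM scaling, the compared groups alone, summed transcripts, tumours named JAX alone and leaving out each tumour. P-values measure the spread between tumour samples, which need not be separate animals. Floors of 3 reads cover counting error only. The members and lists were chosen with earlier results of these data known. The text names all 10 members, called list genes (at most 4 a list) and the 5 genes most like Clec4f and Trem2; Fabp5, uncalled list genes and the other genes given as values were added after seeing them.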

Additional observations from a re-analysis of the deposited data

Results flagged for a closer look

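Of 20 groups of 4 tumours examined, 1 for each of the 10 genes in luc β-catenin tumours of set 1 and in lucOS p53 tumours of set 2, 2 held a tumour far from the rest. A rate of about 1 in 20 by chance would need independent, normally distributed values. Genes here varied together in the same tumours and some lay near 0, so that rate need not hold. Clec4f stood at 11.9 in lucOS p53 tumour 4 of set 2, while the other 3 tumours ran from 0 to 0.995. The gap was 0.916 of the group's range. This is the p53 tumour of set 2 whose name begins with JAX. Vsig4 stood at 755 in luc β-catenin tumour 4 of set 1, where the others ran from 238 to 312, a gap of 0.856 of the range.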

How the results depend on the processing

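Among luc tumours of set 1, 1 of the 10 genes was called, 0 with edgeR, 2 with DESeq2, 2 with the compared groups alone, and 0 to 6 when 1 tumour was left out. Of all 16108 genes tested there, limma called 2431, edgeR 1785 and DESeq2 3303. For the other alternatives of that comparison the share over all genes is not given. Among lucOS tumours of set 2, 4 were called, 0 among tumours named JAX alone (1 p53 tumour left), and 0 to 4 when 1 tumour was left out. The counts of 0 in the other comparisons did not move under any alternative run. Directions turned for Cd68 in set 1 luc (-0.54 without luc p53 tumour 1, to 0.76), for Csf1r in set 1 lucOS (0.01 without β-catenin tumour 1, down to -1.37) and for Clec4f there: -0.11 with a pseudocount of 5, -1.63 with edgeR, -1.64 with DESeq2, and -2.22 and -0.47 without p53 tumour 1 or β-catenin tumour 2, up to 1.71 without p53 tumour 3. Lyz2 in set 2 turned to 0.02 (TMM), 0.13 (edgeR), 0.13 (DESeq2), 0.49 (JAX alone) and 0.35 (without β-catenin tumour 3), and ran down to -0.51 without other tumours. Between lucOS and luc β-catenin tumours of set 2, Clec4f turned to 0.11 and 0.06 and Vsig4 to 0.35 and 0.07 without luc tumour 1 or lucOS tumour 2, with lows of -2.18 and -1.86. The cause was not tested. Of 755 values of single genes under alternatives, 622 kept direction and side of the threshold, 108 lost their call, 9 gained one and 16 turned. TMM moved the median of all genes in the driver comparisons from -0.20, -0.15 and -0.16 to -0.01, 0.00 and -0.01. No paired analysis was possible because the labels give no shared replicate numbers. Depth limits genes near the floor, such as Clec4f in p53 tumours of set 2.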
